A study of Sus scrofa with 6 samples.

Results

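KHDC3L, OOEP and NLRP4 are genes whose transcripts the growing oocyte stores for use around fertilisation. Their levels were followed here in pools of pig oocytes taken either before maturation or after it had run for 44 h in culture. The 3 genes were found by their symbol in the array's annotation, and each was read by 1 probe, so that 3 of 12258 probes are described. The rule that finds them uses no measured level, but the genes were picked with earlier results of these data known. None of the 3 was called different after maturation by limma at an adjusted p under 0.05, against 11.3% of all probes (3.21% higher and 8.07% lower). The largest measured difference was that of KHDC3L, at 0.24 on the log2 scale (1.18-fold higher after maturation), and the smallest was that of NLRP4, at 0.03.

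The study measured total RNA of pooled oocytes on Affymetrix arrays, with 3 pools of 50 oocytes before and 3 after in vitro maturation, all from pubertal crossbred Landrace gilts. No genetic change was made in either group. Ovaries were collected at slaughter, and only oocytes of the best morphological grade with homogeneous cytoplasm were used. The group called in vivo in the titles was taken before maturation, without culture. For the matured group, complexes of oocyte and cumulus cells were kept for 44 h at 38 °C under 5% CO2, in TCM-199 medium with bovine serum albumin, cysteine, pyruvate, 10% porcine follicular fluid, 2.5 IU/ml hCG and 2.5 IU/ml eCG. The labels do not say which animals entered which pool, and a dye test (BCB) named in the design text is not assigned to single samples. Maturation and culture cannot be told apart, since only the matured pools were cultured.

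A maternal-effect gene is one whose product, laid down in the egg, is needed by the early embryo. KHDC3L and OOEP encode small proteins with a KH-type RNA-binding fold. Both belong to the subcortical maternal complex, an assembly beneath the oocyte's surface that also holds NLRP5, TLE6 and PADI6 and is needed for the first cleavages in mice. The complex has been linked to the actin cytoskeleton, the placing of organelles and the spindle, and inherited loss of KHDC3L in women leads to recurrent molar pregnancy. NLRP4 belongs to the NLR proteins, a family best known from innate immunity, several of whose members are expressed mainly in oocytes, and a mouse relative of NLRP4 is a component of the complex.

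Arrays of a group were alike, with correlations across probes of 0.994 to 0.995 after and 0.989 to 0.993 before maturation, against 0.965 to 0.983 between groups. Array medians lay between 5.62 and 5.70. Oocyte markers were bright on average: 18 of 27 oocyte-specific genes were matched, with a mean log2 level per array of 9.69 to 9.85 before and 9.60 to 9.67 after. Of the 18, 0 lay under the lower quartile on all arrays. SOHLH1 and GPR3, named here after their values were seen, lay under the median of every array, and CD9 did so after maturation. Of the 16 matched markers of cumulus and granulosa cells, which surround the oocyte, 10 were called lower and 2 higher, and their mean level per array went from 7.65 to 8.11 before to 6.72 to 6.88 after. SERPINE2, a protease inhibitor gene, fell by 2.92, HSD17B1, of oestradiol synthesis, fell by 4.41, and HSD3B1, of progesterone synthesis, was 3.95 higher (limma adjusted p = 8.94e-06 to 2.12e-05). Theca and stromal markers had mean levels of 4.99 to 5.23 before and 5.07 to 5.14 after, endothelial markers 5.05 to 5.16 and 5.25 to 5.40, and blood cell markers 4.79 to 4.90 and 4.99 to 5.17. The part of somatic cells in the levels of KHDC3L, OOEP and NLRP4 was not tested. In pooled RNA, fewer cells of a type and less RNA per cell cannot be told apart.

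KHDC3L had log2 levels of 9.78, 10.13 and 9.68 in replicates 1, 2 and 3 before maturation and 10.21, 9.94 and 10.15 after it. The highest pool was a matured one and the lowest was an unmatured one, but the groups overlapped, since replicate 2 before maturation lay above replicate 2 after it. The means were 9.86 ± 0.24 before and 10.10 ± 0.14 after (SD, n = 3). The difference was 0.24 with a standard error of 0.14 and a 95% interval from -0.08 to 0.55 (limma adjusted p = 0.284). On a linear scale that interval reaches from 0.95-fold to 1.46-fold of the level before maturation, so that a rise of up to 1.46-fold lies within it. An exact two-sided permutation test of the 6 arrays gave p = 0.2, where 3 arrays against 3 cannot give less than 0.1.

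OOEP, the oocyte-expressed partner of KHDC3L in the complex, had log2 levels of 11.36, 11.21 and 10.91 before maturation and 11.07, 10.89 and 11.09 after it. The brightest 2 pools were unmatured, and the remaining unmatured pool lay among the matured ones. The means were 11.16 ± 0.23 before and 11.02 ± 0.11 after (SD, n = 3), a difference of -0.14 with a standard error of 0.13. The 95% interval ran from -0.44 to 0.16 (limma adjusted p = 0.492), that is from 0.74-fold to 1.11-fold of the earlier level. The exact two-sided permutation p was 0.4.

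NLRP4 had the narrowest spread of the 3. Its log2 level was 10.68, 10.89 and 10.76 in the unmatured pools and 10.81, 10.73 and 10.88 in the matured ones. All matured pools lay between the lowest and the highest unmatured pool. The whole range of the 6 arrays was 0.21, against 0.53 for KHDC3L and 0.47 for OOEP. The means were 10.78 ± 0.11 and 10.81 ± 0.07 (SD, n = 3), and the difference was 0.03 with a standard error of 0.10. Its 95% interval of -0.19 to 0.25 (limma adjusted p = 0.856) covers 0.88-fold to 1.19-fold of the level before maturation. The exact two-sided permutation p was 0.8.

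**Figure D1:**
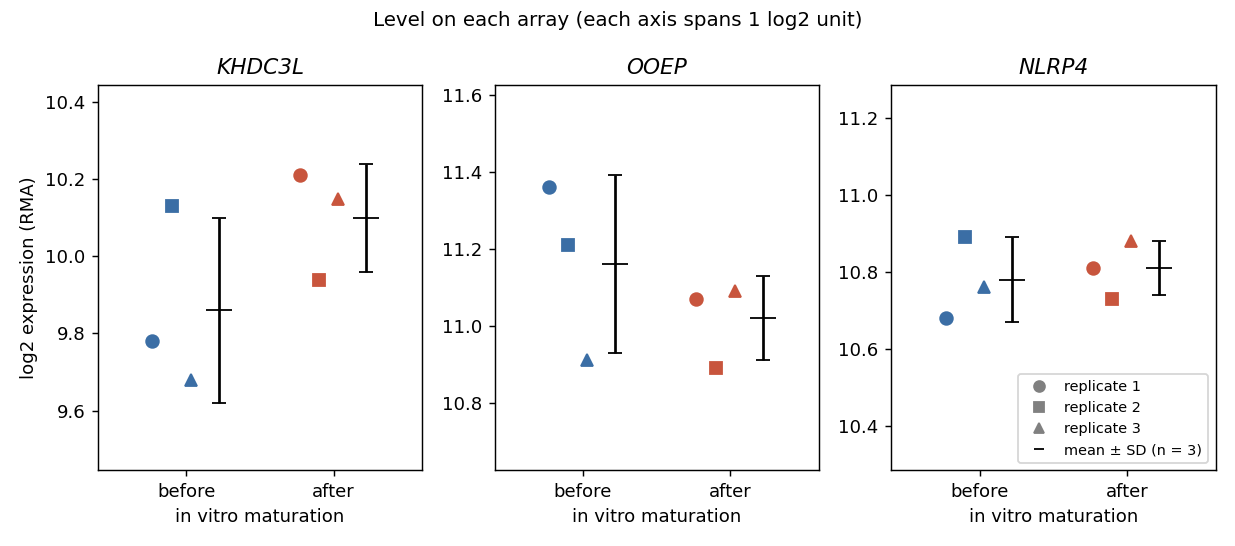
Log2 level (RMA, vertical axis) of KHDC3L, OOEP and NLRP4 on each of the 6 arrays, before (blue) and after (red) in vitro maturation; symbols mark the replicate number and black bars the mean ± SD of 3 arrays, and each axis spans 1 log2 unit. The groups overlap for all 3 genes, and NLRP4 has the narrowest range, 0.21.

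The 3 members can be set against the table as a whole. The absolute difference exceeded that of 63.5% of probes for KHDC3L, 42.7% for OOEP and 9.1% for NLRP4. The median difference of all probes was 0.08, and the median of their absolute differences was 0.17. Matured and unmatured pools did not overlap for 36.1% of all probes (21.7% higher and 14.4% lower after maturation), and for 0 of the 3 members. At an unadjusted p under 0.05, limma gave 3580 of 12258 probes and 0 of the 3 members. All 3 probes were bright. OOEP and NLRP4 lay above the 95th percentile of every array and KHDC3L above it on 3 of 6, and OOEP came within 1.15 of the highest value of an array. Saturation of bright probes was not assessed, and brightness does not rank the 3 transcripts, which were read by different probes.

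The spread between pools was larger before maturation than after it for all 3 genes, with SDs of 0.24 and 0.14 for KHDC3L, 0.23 and 0.11 for OOEP, and 0.11 and 0.07 for NLRP4. The same was true of 57.0% of all probes, so this order is common in the table, and it was not tested for 3 pools a group. Replicate 2 after maturation was the lowest matured pool for all 3 genes, as it was for 32.4% of all probes. Before maturation the lowest pool was replicate 3 for KHDC3L and OOEP and replicate 1 for NLRP4.

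Over the 6 arrays KHDC3L and NLRP4 varied in a similar order (Pearson r = 0.757, Spearman rho = 0.600). KHDC3L and OOEP did not (r = 0.110, rho = 0.086), nor did OOEP and NLRP4 (r = -0.001, rho = 0.143). These values describe 6 arrays that share their normalization and fall into groups, and they carry no test.

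A difference between 2 genes on the same array cancels any constant by which that array was scaled, and it shows whether the genes changed unequally. KHDC3L minus OOEP was -1.58, -1.08 and -1.23 before and -0.86, -0.95 and -0.94 after maturation. The matured pools all lay above the unmatured ones and close to each other. Among single probes the groups did not overlap for 36.1%, and the share among pairs of genes was not counted. The mean of KHDC3L minus OOEP went from -1.29 ± 0.26 to -0.92 ± 0.05 (SD, n = 3), a shift of 0.38 towards KHDC3L. The exact two-sided permutation p of 0.1 is the smallest that 3 arrays against 3 can give, and it became 0.3 when adjusted over the 3 pairs of genes, so this design could not pass a threshold of 0.05. With arrays paired by replicate number the exact sign-flip p was 0.25, the smallest that 3 pairs can give. Without 1 array at a time the shift lay between 0.24, without replicate 1 before maturation, and 0.49.

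The other pairs overlapped between groups. KHDC3L minus NLRP4 was -0.90, -0.76 and -1.08 before and -0.60, -0.79 and -0.73 after maturation, a shift of 0.21 (exact permutation p = 0.2, adjusted p = 0.3). OOEP minus NLRP4 was 0.68, 0.32 and 0.15 before and 0.26, 0.16 and 0.21 after, a shift of -0.17 (exact permutation p = 0.5, adjusted p = 0.5). Replicate 1 before maturation, where OOEP was at its highest, held the highest of these 6 values.

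**Figure D2:**
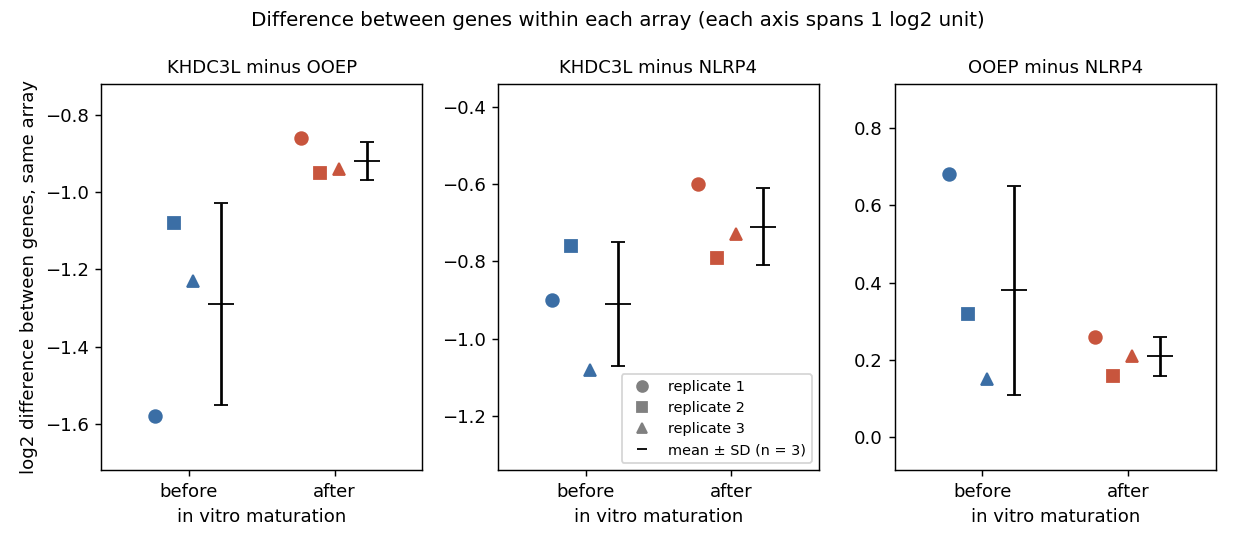
Log2 level of 1 gene minus that of another on the same array (vertical axis), before (blue) and after (red) maturation, for the 3 pairs of genes; symbols mark the replicate number and black bars the mean ± SD of 3 arrays. For KHDC3L minus OOEP the matured pools lie at -0.95 to -0.86, above the unmatured pools at -1.58 to -1.08, while the other pairs overlap.

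The scaling between arrays decides the sign of the smaller differences. With each array set to a common median KHDC3L differed by 0.29, OOEP by -0.087 and NLRP4 by 0.086, and with cyclic loess by 0.18, -0.22 and -0.042, so NLRP4 changed sign. None of these was called, where the same settings called 14.7% and 10.7% of all probes. Holding cytosolic ribosomal protein genes level, a scaling that assumes those transcripts did not change, moved the median probe from 0.08 to 0.67. Under it all 3 members were called higher, KHDC3L by 0.82, OOEP by 0.44 and NLRP4 by 0.62 (limma adjusted p = 9.4e-05, 0.0261 and 0.00227), and so were 82.2% of all probes. Relative to the median probe the differences were 0.16 for KHDC3L, -0.22 for OOEP and -0.05 for NLRP4 on the deposited scale. Holding ribosomal protein genes level shifts each array by a constant, so it leaves these values unchanged by construction.

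**Figure D3:**
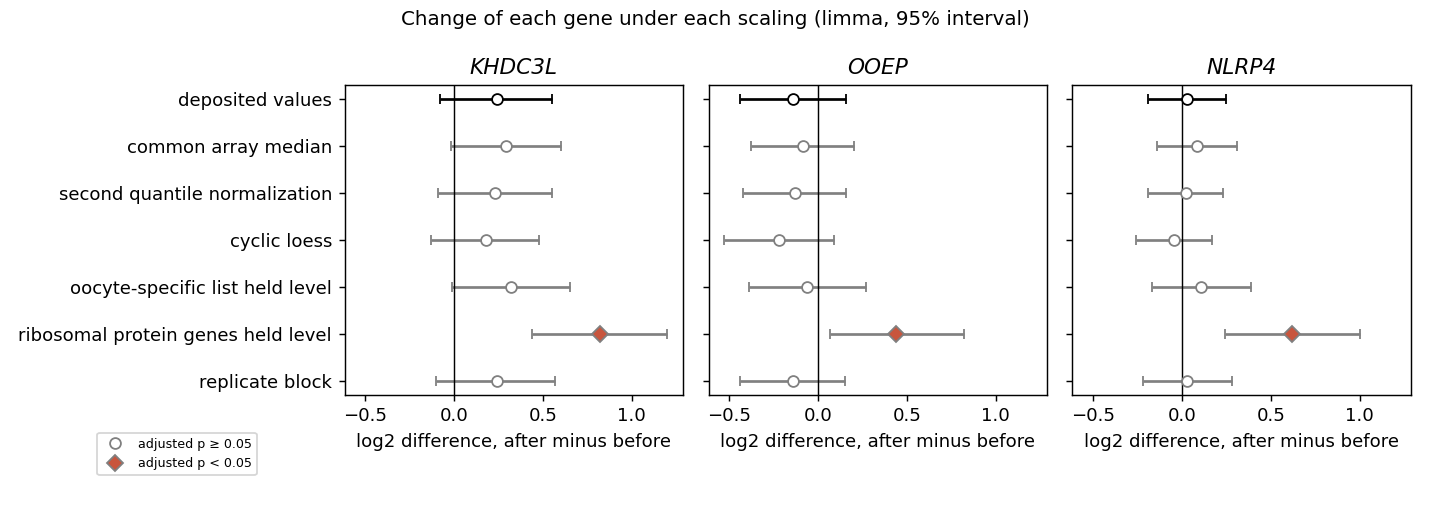
Log2 difference after minus before maturation (horizontal axis) with its 95% interval from limma for KHDC3L, OOEP and NLRP4, as deposited, under 5 other scalings and with the replicate number as a block; filled diamonds mark an adjusted p under 0.05. Among the settings shown, only with ribosomal protein genes held level do the intervals leave 0, and 82.2% of all probes were called higher under that scaling.

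Of the other genes of the subcortical maternal complex 3 of 6 were matched by name, PADI6, NLRP7 and ZBED3, and 0 of the 3 were called. NLRP5, TLE6 and NLRP2 were not analysed here. PADI6, which encodes a peptidylarginine deiminase of the oocyte's cytoplasmic lattices, was at 10.76, 11.04 and 10.65 in the unmatured pools and at 10.83, 10.90 and 11.13 in the matured ones. The groups overlapped, and the difference of 0.13 had a 95% interval of -0.17 to 0.43 (limma adjusted p = 0.534). NLRP7, an NLR gene in which mutations cause molar pregnancy in women, was at 7.51, 7.62 and 7.54 before and 8.04, 7.38 and 7.75 after, with a difference of 0.16 (limma adjusted p = 0.514). Its matured pools spanned the unmatured ones on both sides. ZBED3, a zinc finger gene reported in the complex in mice, was at 6.44, 6.59 and 6.48 before and 6.37, 6.35 and 6.15 after. All its matured pools lay under the unmatured ones, but the difference of -0.21 did not pass the test (limma adjusted p = 0.202). The median of these 3 genes was 0.13, against 0.08 for all probes. With ribosomal protein genes held level PADI6 and NLRP7 were called higher, as were NLRP8, DPPA5, SOX17, KDR, TYROBP and 82.2% of all probes.

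Among NLR genes other than NLRP4, 11 of 21 were matched, 1 was called higher and 10 were not called, a share of 9.09% beside the 11.3% of all probes. Their differences ran from 0.03 to 0.37 with a median of 0.17. All 11 lay above 0 on the deposited scale, where the median of all probes was itself 0.08 and the lower quartile -0.08. With cyclic loess, where the median of all probes was 0.01, only 8 of the 11 lay above 0. NLRP6, known as an intestinal inflammasome gene, was the 1 called, at 4.39, 4.39 and 4.47 before and 4.71, 4.78 and 4.73 after maturation. Its difference of 0.32 (limma adjusted p = 0.0466) lost the call with the replicate number as a block (adjusted p = 0.0619), without any 1 of the 6 arrays, with cyclic loess or a second quantile normalization, without the dimmest 25% of probes and with trend and robust set. Before maturation it lay close to the arrays' lower quartiles (4.27 to 4.30). NLRP8, an oocyte-expressed NLR gene, went from 8.56, 8.67 and 8.57 to 8.93, 8.96 and 8.84. Its groups did not overlap, and its difference of 0.31 missed the threshold (limma adjusted p = 0.0591). It was called higher with a common median (0.37, adjusted p = 0.0323), a second quantile normalization (0.33, adjusted p = 0.0479) and the oocyte-specific list held level (0.39, adjusted p = 0.0481). NLRP9, named here after its values were seen, is another oocyte NLR gene and differed by 0.05, from 11.56, 11.62 and 11.60 to 11.61, 11.65 and 11.68.

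**Figure D4:**
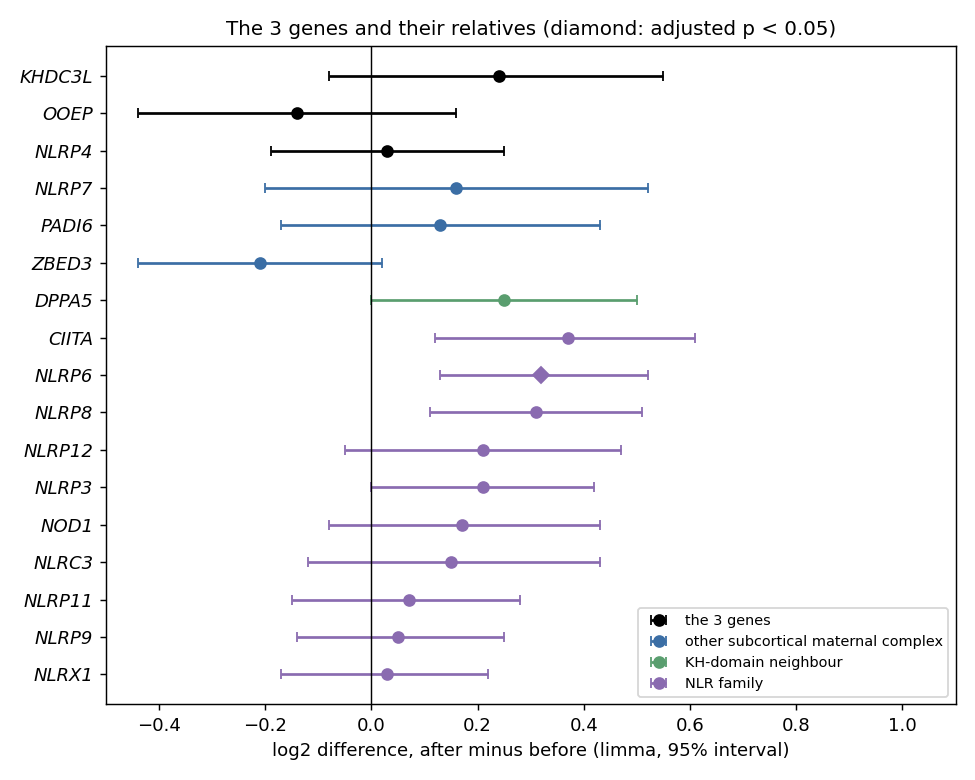
Log2 difference after minus before maturation (horizontal axis) with its 95% interval from limma for KHDC3L, OOEP and NLRP4 (black) and for the matched genes of the subcortical maternal complex (blue), the KH-domain gene DPPA5 (green) and the NLR family (purple, with NLRP7 shown in blue). NLRP6, at 0.32, is the gene marked as called by a diamond, and OOEP and ZBED3 have negative values.

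KHDC3L and OOEP lie next to each other in the RefSeq gene table of the assembly Sscrofa11.1, with no protein-coding gene between them. The gene on the far side of KHDC3L is DPPA5, a further KH-domain gene, and the one beyond OOEP is DDX43, an RNA helicase gene. DPPA5 was at 10.92, 11.06 and 10.75 before and 11.13, 11.10 and 11.26 after maturation, so that all matured pools lay above the unmatured ones. Its difference of 0.25 (95% interval 0.00 to 0.50) was close to that of KHDC3L and was not called (limma adjusted p = 0.166). DDX43 differed by -0.04 (limma adjusted p = 0.840). Of the 3 adjacent KH-domain genes, DPPA5 and KHDC3L thus had positive values and OOEP a negative one, none of them called. KHDC1, of the same family, was not analysed here.

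Farther out on the same chromosome, RIMS1, a presynaptic scaffold gene, differed by -0.05, KCNQ5, a potassium channel gene, by 0.18, and CEP162, a centriole gene, by 0.07. None of these was called. TBX18, a T-box transcription factor gene at the fifth place beyond OOEP, rose by 0.44 (limma adjusted p = 0.0337). It lost the call without replicate 2 or 3 before maturation and without replicate 1 or 2 after it (adjusted p = 0.0756 to 0.122). Of the 10 nearest protein-coding genes 7 were matched for KHDC3L, with 0 called, and 8 for OOEP, with 1 called, beside 11.3% of all probes. Most of these genes are counted for both members, and each member is counted as a neighbour of the other.

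NLRP4 lies in a run of NLR genes, between NLRP11 and NLRP13, with NLRP8 and NLRP5 beyond. NLRP11, also of the oocyte, was at 10.81, 10.92 and 10.89 before and 10.89, 11.05 and 10.88 after maturation. Its difference of 0.07 (limma adjusted p = 0.652) was near 0, like that of NLRP4, and it turned to -0.007 with cyclic loess. ZNF787, a zinc finger gene just outside the run, differed by 0.28 (limma adjusted p = 0.147), and was called with a second quantile normalization (0.41, adjusted p = 0.0371). Of the 10 nearest protein-coding genes of NLRP4 5 were matched and 0 were called, beside 11.3% of all probes.

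**Figure D5:**
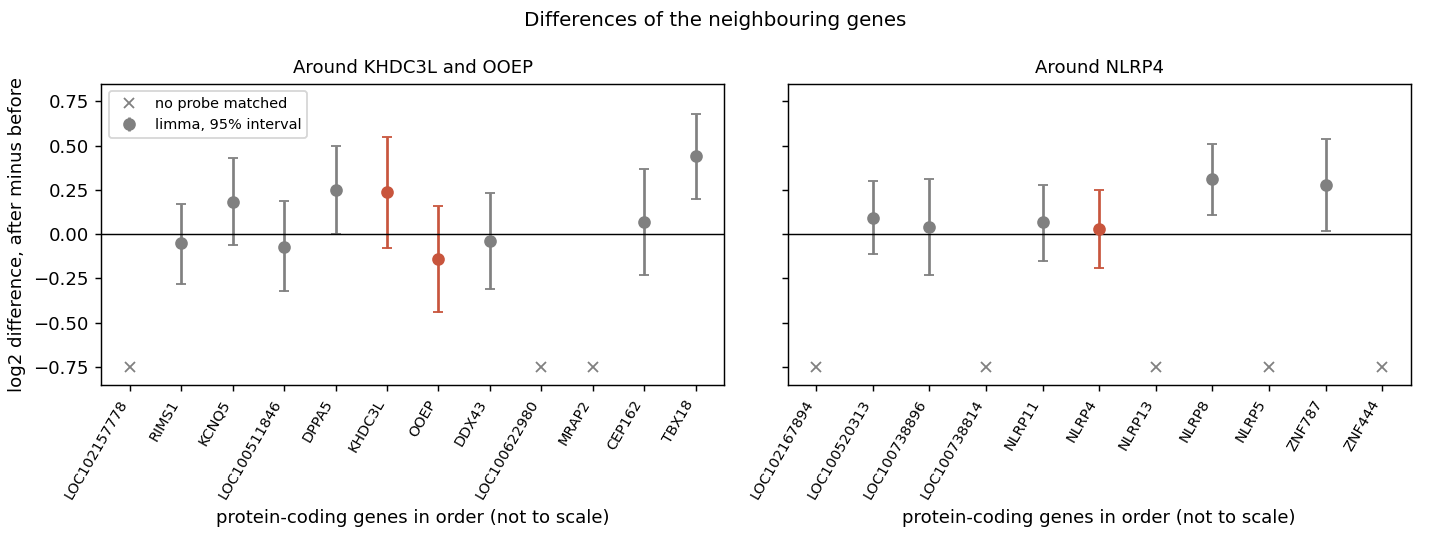
Log2 difference after minus before maturation (vertical axis) with its 95% interval from limma for the protein-coding genes around KHDC3L and OOEP (left) and around NLRP4 (right), in the order of the RefSeq table and not to scale; crosses mark genes with no matched probe and have no value. KHDC3L (0.24) and DPPA5 (0.25) lie above 0 and OOEP (-0.14) below it, and TBX18 (0.44) is the gene that was called.

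Of 46 other maternal-effect genes 25 were matched, 0 were called higher, 2 lower and 23 neither, a share of 8% called beside 11.3% of all probes, with a median of 0.10. The count called higher was 2 with the replicate block, a common median or a second quantile normalization, and 3 without replicate 1 before maturation. In that order, these settings called 5.07%, 7.46%, 4.86% and 3.54% of all probes higher, against 3.21% in the main fit. GCLM, a subunit gene of glutathione synthesis, fell by 1.11 from 8.01 ± 0.42 to 6.90 ± 0.42 (SD, n = 3), and RLIM, a ubiquitin ligase gene, fell by 0.39 from 7.40 ± 0.02 to 7.01 ± 0.08. The limma adjusted p was 0.0264 and 0.0261. RLIM lost its call without any 1 of the 6 arrays, and also with trend and robust set, a second quantile normalization or the oocyte-specific list held level. GCLM did so without replicate 3 before or replicates 2 or 3 after maturation. Of 15 listed genes of the actin cytoskeleton and spindle, 8 were matched, all of them genes of actin or its regulation. Of the 8, 2 were called lower. The share was 25%, where 8.07% of all probes were called lower. TPM3, a tropomyosin gene, fell by 1.97, and ACTB, the beta-actin gene, fell by 0.50 (limma adjusted p = 4.18e-05 and 0.0136). ACTB turned to 0.086 with ribosomal protein genes held level, and without replicate 2 after maturation it was not called. The mean level of the cumulus and granulosa cell markers was lower after maturation as given above. These cells also express actin genes, and their part in these values was not tested.

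Of the 18 oocyte-specific genes 4 were called lower, 0 higher and 14 neither, a share of 22.2% called beside 11.3% of all probes, with a median of 0.07. KIT, a receptor tyrosine kinase gene, fell by 1.22, CD9, a tetraspanin gene of the egg membrane that somatic cells also express, fell by 1.60, and ZP3, a zona pellucida gene, fell by 0.70 (limma adjusted p = 0.0011, 0.00291 and 0.0104). With ribosomal protein genes held level ZP3 was not called. Among the somatic lists, ACTA2, the smooth muscle actin gene, fell by 1.93, and POSTN and COL3A1, of the stromal matrix, rose by 1.20 and 0.37. Before maturation POSTN (mean 3.69) and COL3A1 (mean 4.04) lay under the arrays' lower quartiles, and without the dimmest 25% of probes 0 of the 7 stromal genes left were called higher. The call of COL3A1 was lost with cyclic loess (adjusted p = 0.0968), with a second quantile normalization (adjusted p = 0.0739) and without any 1 array other than replicate 3 after maturation, and that of POSTN without replicate 2 or 3 before or replicate 1 or 3 after it. CD3E, a T cell receptor gene, rose by 0.48, and it lost its call with cyclic loess and without any 1 array other than replicate 2 before maturation. TYROBP, of myeloid cells, differed by 0.41, and the endothelial genes SOX17 and KDR by 0.51 and 0.23. None of these 3 was called in the main fit. SOX17 was called with the replicate block (adjusted p = 0.0369), a common median, the oocyte-specific list held level or the dimmest probes left out (adjusted p = 0.0336 to 0.0461), TYROBP with a common median (adjusted p = 0.0487) and KDR with trend and robust set (adjusted p = 0.0442).

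The genes whose levels followed each member most closely over the 6 arrays were sought among 9825 named genes, as a description with no test. With KHDC3L these were NUDT16, LMCD1, ZBTB49, GTF2A2 and C2CD2, with Pearson r of 0.989 to 0.977. With OOEP they were FIP1L1, a factor of mRNA polyadenylation, at 0.998, and CACNA1D, AAR2, ZSWIM8 and PPT2 at 0.988 to 0.963. With NLRP4 they were POLL and XPA, both of DNA repair, at 0.975 and 0.967, and FAM103A1, DPY19L2 and ATP5L at 0.962 to 0.959. None of these 15 genes was called, where 11.3% of all probes were. They were chosen for following members that were not called, so this count follows largely from the choice. Their differences lay between -0.24 for PPT2 and 0.18 for LMCD1 and FAM103A1. Of the 5 chosen by Pearson r, 4, 3 and 2 were also among the closest by Spearman rho for KHDC3L, OOEP and NLRP4. Over 6 arrays many genes reach such values: 37 genes had the same order of arrays as KHDC3L.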

How the data were processed

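The members and the gene lists were chosen with earlier results of these data known. The deposited table holds log2 expression values of 12258 probes on 6 arrays, made by the authors with RMA, per the submitters' processing notes. RMA's version, options and probe filter, and the genome build, were not given in the sources used here. The log2 scale follows from RMA's usual output and from values of 2.69 to 12.65. Total RNA (100 ng per pool) went through repeated cDNA amplification, per the labels' protocols.

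Gene names came from the platform annotation, updated by gene identifier to RefSeq's table of Sscrofa11.1, which was used for names and gene order. Of the probes 10922 had 1 gene symbol, 268 several and 1068 none listed, which gave 9828 named genes, with the brightest probe per gene. The test was limma's moderated one (version 3.58.1, R 4.3.3), two-sided and fitted to every probe, after against before, with Benjamini-Hochberg adjustment and a threshold of 0.05. The fit was tested on simulated data.

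Same-numbered arrays deviated together from their group means (correlations of 0.283, 0.120 and 0.142), against -0.168 to 0.019 for arrays of unlike number. Deviations within a group cancel by construction, so positive values for same-numbered arrays bring negative ones on balance for the others. The labels name the numbers only as biological replicates and state no pairing. Whether the numbers pair the pools was not tested, and the block is given as an alternative. The main fit has no block. Each limma p-value sets a difference against the spread between these pools, with the variance of each probe moderated over all probes. The permutation p-values rest on reassigning the arrays to the groups.

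The rule for named genes took the 3 members, all matched genes of the complex and the KH cluster, up to 3 called genes per other list (the 2 smallest p where fewer than 2 were called), the 5 genes most like each member, and the genes with a probe among 5 protein-coding neighbours on either side. Alternatives were the block, 5 scalings, a filter on dim probes, other models, 1 probe per gene and the omission of 1 array at a time. Python 3.11.15, pandas 2.3.3 and matplotlib 3.10.9 served for tables and plots.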

Additional observations from a re-analysis of the deposited data

How the results depend on the processing

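For KHDC3L, OOEP and NLRP4 the call changed only with ribosomal protein genes held level, to 0.82, 0.44 (a change of sign) and 0.62. NLRP4 also changed sign with cyclic loess (-0.042). Leaving out 1 array gave 0.14 to 0.37 for KHDC3L, -0.27 to -0.042 for OOEP and -0.017 to 0.087 for NLRP4. The 95% interval left 0 for KHDC3L without replicate 2 before maturation (0.08 to 0.65). It also did so for OOEP without replicate 3 before maturation (-0.53 to -0.01). Neither was called (limma adjusted p = 0.11 and 0.198). The replicate block changed no call of these 3 (0.24, -0.14 and 0.03), and among the genes named it ended that of NLRP6 and added that of SOX17. It raised the 394 probes called higher to 621 and the list genes called higher from 6 to 11 of 109. The 394 became 915 with a common median, 596 with a second quantile normalization, 254 with cyclic loess, 688 with the oocyte-specific list held level and 10082 with ribosomal protein genes held level, and the 989 called lower became 417 under the last. Against a 1.5-fold change 27 were higher and 222 lower. The 6 list genes called higher became 14, 3, 10 and 83 with a common median, cyclic loess, the oocyte-specific list and ribosomal protein genes held level. Against a 1.5-fold change 2 were higher, and the 19 called lower became 12. Without 1 array 103 to 434 probes were higher and 531 to 1013 lower, and 2 to 7 list genes higher and 14 to 18 lower. The count of higher probes moved by over 1.5 times without any 1 array other than replicate 1 before maturation, and that of lower probes without replicate 1 or 2 after it.

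The within-array shifts kept their sign, at 0.24 to 0.49 for KHDC3L minus OOEP, 0.12 to 0.28 for KHDC3L minus NLRP4 and -0.29 to -0.03 for OOEP minus NLRP4 without 1 array. Genes named with small differences changed sign. Among them, with ribosomal protein genes level, were AAR2 (0.46), ACTB (0.086), CACNA1D (0.51), DDX43 (0.55), FIP1L1 (0.51), PPT2 (0.35), RIMS1 (0.53), RLIM (0.19), ZBED3 (0.38) and ZSWIM8 (0.42), and with the oocyte-specific list held level CACNA1D (0.006), DDX43 (0.042), FIP1L1 (0.007) and RIMS1 (0.030). With a common median they were DDX43 (0.015) and RIMS1 (0.003), with a second quantile normalization DPY19L2 (-0.077) and ZBTB49 (-0.037), and with cyclic loess DPY19L2 (-0.082), NLRP11 (-0.007) and ZBTB49 (-0.043). Without 1 array ATP5L ran from -0.004 to 0.36, CEP162 from -0.062 to 0.19, DDX43 from -0.16 to 0.029, DPY19L2 from -0.026 to 0.053, POLL from -0.086 to 0.18, RIMS1 from -0.10 to 0.004 and XPA from -0.016 to 0.21. The cause of these changes was not tested beyond the shift each scaling adds by construction. The number of arrays limits the precision, and detection and saturation of probes were not assessed.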
